A study of Homo sapiens with 3 samples.

Results

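RNA from cells labelled AGS, a human gastric adenocarcinoma line, was compared after 48 h with 12 µM of a compound named SFA and after 48 h with DMSO, the vehicle control. Each group is 1 library of ribosomal RNA-depleted total RNA. The name SFA is not explained in the labels. A further library, from cells given 18 µM of a compound named SFE for the same time, is quoted for a few genes only. The genes described are those at 1 FPKM or more (fragments per kilobase of gene divided by the library's total count) in the DMSO or the SFA library, with 1 identifier for each gene name: 11310 of the 50868 identifiers in the deposited table. Of these, 9307 are protein-coding, and 7451 overlap another listed gene on either strand. With 1 library on each side nothing could be tested, and every value below describes these libraries. Ratios are counts divided by each library's total, with 95% intervals for counting error alone, which leave out the variation between cultures. In bulk RNA, fewer cells of a type and less RNA per cell cannot be told apart.

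Total counts were 18767232 with DMSO and 13639844 with SFA. Of 9 epithelial and AGS markers 6 reached 1 FPKM. The keratins of simple epithelia KRT8, KRT18 and KRT7 were abundant, at 416, 534 and 118 FPKM with DMSO, and CLDN4, CDX2 and GATA6 were low. The other 3 were nearly absent: EPCAM had 27 and 13 counts with DMSO and SFA, KRT19 13 and 6, and CDH1, which encodes E-cadherin, 40 and 32. The near absence of these markers goes against the label of an epithelial line, so AGS stands here only as the name the labels give. The mesenchymal filament gene VIM stood at 84.4 and 82.4 FPKM and CDH2, N-cadherin, at 11.7 and 11.6 FPKM. All 10 leukocyte, endothelial and erythroid markers lay under 1 FPKM in both libraries, the highest being CDH5 at 0.507 FPKM with DMSO. Of 6 fibroblast markers, COL1A1, COL3A1, PDGFRB and THY1 exceeded 1 FPKM, while DCN and LUM did not.

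The 2 gene lists with the highest medians hold genes that answer electrophiles. In cells at rest the adaptor KEAP1 marks the transcription factor NRF2, encoded by NFE2L2, for degradation. Reactive compounds and oxidants modify cysteines of KEAP1, and NRF2 then enters the nucleus, pairs with a small MAF protein and binds the antioxidant response element. Its targets make and recycle glutathione and thioredoxin, supply NADPH, conjugate and export foreign compounds, and handle heme and iron. BACH1, a repressor that binds the same element, is released by heme.

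Most genes differed little. On the log2(FPKM + 1) scale used for all differences, 10158 genes (89.8%) lay within 1.5-fold, with a median of 0.01 and quartiles of −0.18 and 0.19. At least 2-fold, 159 genes were higher in the SFA library (1.41%) and 157 were lower (1.39%), together 2.79%. Because 1 is added to each level, a gene of low level can exceed 2 in its ratio without being counted as 2-fold. By any amount 51.3% were higher and 48.7% lower. At least 4-fold, 23 were higher and 22 lower. The nearer bound of the count ratio was past 2-fold for 134 of the 159 and 133 of the 157. The share past 2-fold was 1.62% among genes at 1 to 2 FPKM in their higher library and 4.26% among those at 100 FPKM or more. It was 2.44% for protein-coding genes and 4.44% for long intergenic non-coding RNA genes.

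**Figure D1:**
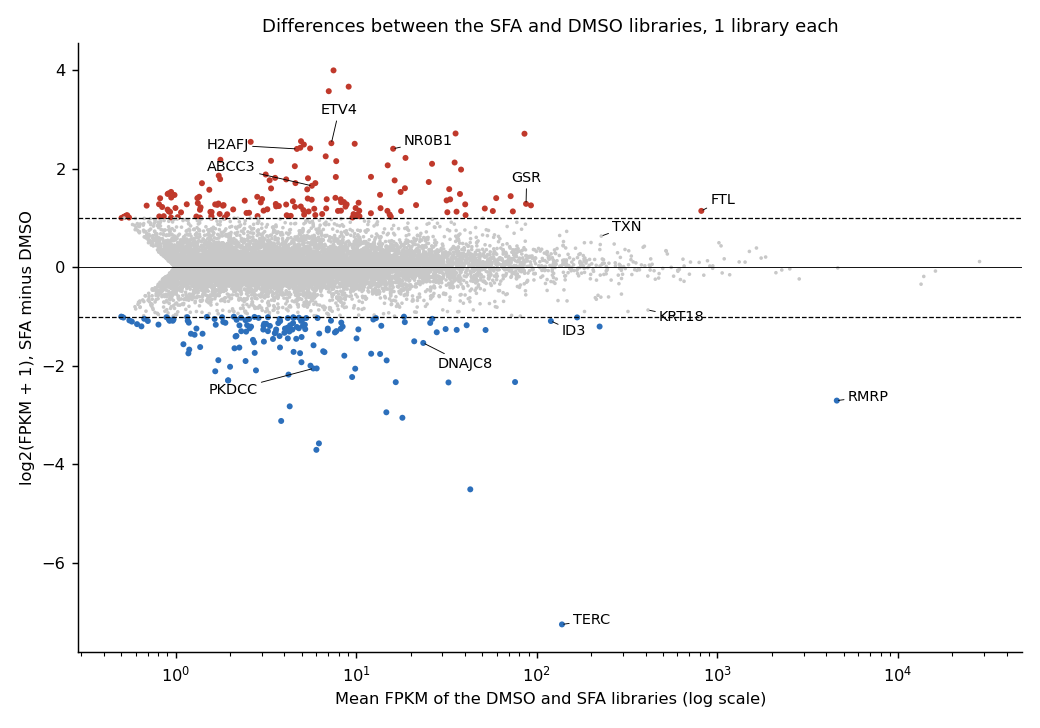
Each point is 1 of 11310 genes; the horizontal axis is its mean FPKM in the DMSO and SFA libraries (log scale) and the vertical axis the log2(FPKM + 1) difference, SFA minus DMSO. Dashed lines mark 2-fold, red points are the 159 genes at least 2-fold higher with SFA and blue points the 157 at least 2-fold lower; FTL stands out among abundant genes that were higher and RMRP among those that were lower.

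The core of the antioxidant response element, TGACNNNGC, was looked for on both strands in RefSeq promoter windows (GRCh38.p14), which run from 250 bases before to 50 bases after a transcription start. It was present in 13.3% of all 35116 windows, in 15.1% of the windows of the genes described here and in 14 of 54 windows (25.9%) of 41 NRF2 target genes with a window. Windows of genes at least 2-fold higher with SFA held it in 24.8% and those of genes at least 2-fold lower in 15.8%. ATF4 and CHOP factors held it in 29.2% of 24 windows, above the NRF2 targets, proteasome genes in 23.5% and mitosis genes in 22.0%. Below are the 250 bases before the start of 4 NRF2 target genes, 5′ to 3′ on the gene's strand with the core in capitals. GCLM and TXNRD1 are shown because they were more than 2-fold higher with SFA, and ME1 and GSTP1 because they hold the same core and had smaller ratios. In GCLM and TXNRD1 the core lies on the opposite strand, so the capitals show its reverse complement. The ME1 and GSTP1 cores overlap the AP-1 motif TGANTCA, which was also searched on both strands. These genes are examples and do not show a pattern of the whole group. EPHX1, also more than 2-fold higher, holds a core without that overlap. So do PGD, IDH1 and ABCB6, which were short of 2-fold, and GSTA4, which was lower, while the PIR core overlaps AP-1.
GCLM, chr1:93909431-93909680, minus strand: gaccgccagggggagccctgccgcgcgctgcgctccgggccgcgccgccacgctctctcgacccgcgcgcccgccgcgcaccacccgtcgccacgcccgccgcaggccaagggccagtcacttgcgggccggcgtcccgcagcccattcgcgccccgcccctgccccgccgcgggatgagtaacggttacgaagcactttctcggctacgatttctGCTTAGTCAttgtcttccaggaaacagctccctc
TXNRD1, one of its starts, chr12:104286782-104287031, plus strand: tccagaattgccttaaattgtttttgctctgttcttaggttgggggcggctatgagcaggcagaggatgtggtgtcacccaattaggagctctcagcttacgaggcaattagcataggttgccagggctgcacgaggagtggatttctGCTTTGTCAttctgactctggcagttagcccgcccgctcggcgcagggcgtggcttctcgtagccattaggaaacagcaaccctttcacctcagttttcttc
ME1, chr6:83431052-83431301, minus strand: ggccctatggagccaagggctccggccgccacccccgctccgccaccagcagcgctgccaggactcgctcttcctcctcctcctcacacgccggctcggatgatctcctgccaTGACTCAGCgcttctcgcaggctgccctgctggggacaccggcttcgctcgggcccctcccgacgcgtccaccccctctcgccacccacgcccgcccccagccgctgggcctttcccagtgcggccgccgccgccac
GSTP1, chr11:67583562-67583811, plus strand: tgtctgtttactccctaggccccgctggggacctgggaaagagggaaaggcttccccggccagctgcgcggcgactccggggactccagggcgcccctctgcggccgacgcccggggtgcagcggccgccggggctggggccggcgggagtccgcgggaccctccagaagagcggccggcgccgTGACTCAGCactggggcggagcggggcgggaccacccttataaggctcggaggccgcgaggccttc
The cores begin 34 bases before the start in GCLM, 102 in TXNRD1, 137 in ME1 and 66 in GSTP1. The count ratio of SFA to DMSO was 2.54 for GCLM, 2.23 for TXNRD1, 1.43 for ME1 and 1.14 for GSTP1. A match describes letters and shows no binding.

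Genes of glutathione synthesis and recycling were higher with SFA, while the genes of its later use differed less or were lower. Of the 11 kept genes on the glutathione list, 9 were higher, 5 of them at least 2-fold, and the median difference was 0.61. GCLC, the catalytic subunit of the ligase that starts glutathione synthesis, stood at 1.67 FPKM in the DMSO library against 5.51 FPKM in the SFA library, a ratio of 3.30 (2.95 to 3.70). GCLM, its modifier subunit, stood at 5.62 and 14.2 FPKM (ratio 2.54, 2.33 to 2.76). GSS, which completes the synthesis, had a smaller ratio of 1.54 at 36.4 and 56.0 FPKM. The rate-limiting ligase thus differed more than the second enzyme. GSR, the reductase that recycles oxidised glutathione, stood at 50.2 and 124 FPKM (ratio 2.47, 2.38 to 2.57). Among glutathione transferases GSTP1, the abundant one, stood at 92.1 and 105 FPKM, GSTM3 at 3.43 and 5.38 FPKM and MGST1 at 10.2 and 14.7 FPKM. GSTA4, low in both libraries, stood at 1.19 and 0.587 FPKM, 2.02-fold lower (1.30 to 3.24). GSTA4 was kept only through the DMSO library, so the filter fixed its direction. The glutathione conjugate pump ABCC1 was level at 23.5 and 23.3 FPKM. GPX2 and GGT1, on the same list, lay under 1 FPKM in both libraries.

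All 9 genes of the thioredoxin list were higher by their own counts, 3 at least 2-fold (median 0.63, but 0.38 in the 2 that overlap no other listed gene). One of the 9, the glutaredoxin gene GLRX, had a ratio of 2.0 but 0.610 once the counts of overlapping genes were added. SRXN1, sulfiredoxin, which restores over-oxidised peroxiredoxins, stood at 38 and 105 FPKM (ratio 2.77, 2.62 to 2.92). TXNRD1, the reductase of thioredoxin, stood at 19.8 and 44.1 FPKM (ratio 2.23, 2.16 to 2.30). Thioredoxin itself, TXN, had a ratio of 1.56 at 178 and 277 FPKM. The peroxiredoxins had smaller differences: PRDX1 stood at 333 and 442 FPKM and PRDX6 at 138 and 151 FPKM.

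The enzymes that supply NADPH were all higher but none by 2-fold, with 7 of 7 higher and a median of 0.24. One of them, PGLS, was near level at 7.58 and 7.74 FPKM. Its difference of 0.03 is smaller than the shifts of −0.05 and −0.06 that other scalings bring. PGD, an oxidative enzyme of the pentose phosphate pathway, stood at 70.4 and 102 FPKM (ratio 1.45). ME1, cytosolic malic enzyme, stood at 17.0 and 24.3 FPKM. The non-oxidative enzymes TKT and TALDO1 had ratios of 1.18 and 1.17. IDH1, cytosolic isocitrate dehydrogenase, stood at 18.9 and 22.2 FPKM.

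Detoxification genes formed the group with the highest median of the 70 gene lists described, 0.87, with 20 of 20 kept genes higher and 8 at least 2-fold. PTGR1, which reduces reactive aldehydes and prostaglandins, stood at 6.88 and 25.8 FPKM (ratio 3.75, 3.45 to 4.08). EPHX1, microsomal epoxide hydrolase, stood at 22.2 and 49.7 FPKM (ratio 2.24, 2.10 to 2.39). NQO1, the quinone reductase much used as an NRF2 reporter, was already at 60.7 FPKM with DMSO and reached 112 FPKM, a ratio of 1.85 (1.79 to 1.91), short of 2-fold. TRIM16L, a TRIM family gene, stood at 15.9 and 49.6 FPKM, and its near-identical relative TRIM16 at 8.80 and 17.0 FPKM, so reads could be split between them. Export pumps for conjugates differed unequally. ABCC3 stood at 2.22 and 9.15 FPKM (ratio 4.12, 3.76 to 4.52), ABCC2 at 18.2 and 30.7 FPKM, and the porphyrin transporter ABCB6 at 12.4 and 20.2 FPKM. ABCG2, a multidrug pump outside this list, was lower, at 6.16 and 3.61 FPKM. Over all 20 kept ABC transporters 10 were higher and 10 lower, with a median of 0.00. CES1, UGT1A1 and UGT1A6 lay under 1 FPKM, CES1 with 1 count with DMSO and 14 with SFA.

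In heme and iron handling 7 of 7 kept genes were higher, 2 at least 2-fold (median 0.72). FTL, ferritin light chain, overlaps no other listed gene and stood at 507 FPKM in the DMSO library against 1122 FPKM in the SFA library (ratio 2.22, 2.17 to 2.26). FTH1, the heavy chain, stood at 269.9 and 310.5 FPKM, a ratio of 1.15. The light chain thus differed more than the heavy chain. BLVRB, biliverdin reductase B, stood at 13.2 and 25.5 FPKM, whereas BLVRA was near level at 4.21 and 4.28 FPKM. The BLVRA difference of 0.02 is smaller than the shifts that other scalings bring. FECH, which inserts iron into protoporphyrin to form heme, stood at 3.86 and 7.0 FPKM, and the heme transporter SLC48A1 at 3.48 and 6.26 FPKM.

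The pathway's regulators showed no common direction, with 5 of 8 higher, none 2-fold either way. NFE2L2 itself was lower, at 6.06 FPKM in the DMSO library against 3.46 FPKM in the SFA library (1.75-fold lower, 1.58 to 1.93). KEAP1 stood at 18.5 and 27.7 FPKM (ratio 1.49) and BACH1 at 1.73 and 3.05 FPKM (1.76). Among the small MAF partners MAFG had a ratio of 1.38 and MAFK of 1.28, and MAFF, under 1 FPKM, had 28 and 111 counts. By their own counts, mRNA of the factor was lower while that of its inhibitor and of its competitor was higher. Of the 8 regulators only 1, RBX1, overlaps no other listed gene. How far the values of NFE2L2, KEAP1 and BACH1 belong to these genes alone is therefore uncertain. NR0B1, which encodes the nuclear receptor DAX-1, was, after TMEM164, the protein-coding gene with the largest positive difference at 5 FPKM or more among those that overlap no other listed gene: it stood at 4.40 and 27.6 FPKM (ratio 6.29, 5.40 to 7.34).

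**Figure D2:**
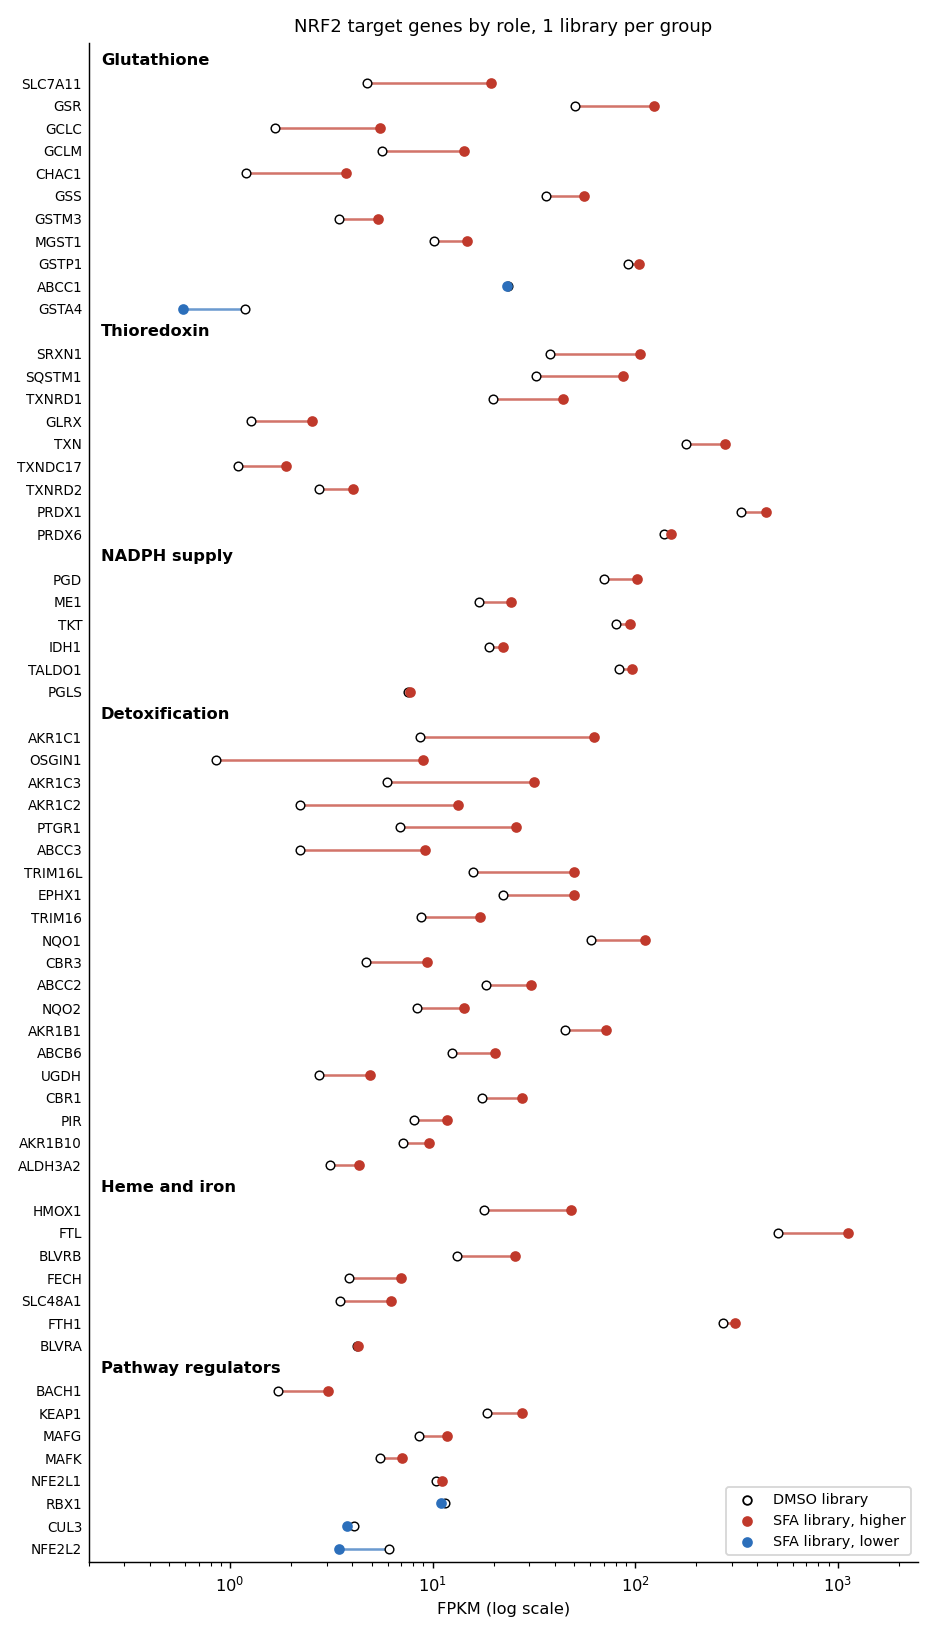
FPKM (horizontal log axis) of kept NRF2 targets and regulators in the DMSO library (open circles) and the SFA library (filled circles, red where higher and blue where lower), 1 library each, ordered by difference within each role. The filled circles lie to the right for every gene shown of the thioredoxin, NADPH, detoxification and heme groups, for 9 of 11 glutathione genes and for 5 of 8 regulators.

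Among other genes that overlap no other listed gene, several with unrelated roles were much higher with SFA. H2AFJ, a replacement histone of the H2A class, stood at 0.811 and 8.58 FPKM (ratio 10.6, 8.23 to 13.8). CHRAC1, a histone-fold subunit of chromatin remodelling complexes, stood at 2.25 and 9.63 FPKM. PI3, the elastase inhibitor elafin, had 11 and 48 counts, and its ratio of 6.00 has a wide interval (3.07 to 12.8). SRPX2, a secreted protein linked to angiogenesis, stood at 1.85 and 8.97 FPKM (ratio 4.86). CANT1, a calcium-activated nucleotidase, stood at 4.28 and 12.2 FPKM, and DUSP3, a phosphatase of MAP kinases, at 4.11 and 12.3 FPKM. These genes thus span chromatin, secreted and signalling proteins. CYP4F11, a fatty acid hydroxylase, had 2 counts with DMSO and 117 with SFA, a ratio of 80.5 (21.8 to 672) at a level of only 1.03 FPKM. DHRS3, which reduces retinaldehyde, stood at 3.18 and 8.54 FPKM. In the list of cytochromes P450 and conjugating enzymes 14 of 18 were higher (median 0.27).

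In the opposite direction, the same class of genes included regulators of shape and signalling. PKDCC, a secreted kinase of skeletal development, stood at 9.94 FPKM in the DMSO library against 1.64 FPKM in the SFA library (6.07-fold lower, 5.23 to 7.09). KANK4, an adaptor of adhesion sites, stood at 10.4 and 1.74 FPKM, and OLFML2A, an olfactomedin-like matrix protein, at 8.07 and 1.71 FPKM. CDC42EP4, an effector of the GTPase CDC42, was 4.65-fold lower and ARHGAP18, a brake on RhoA, 3.19-fold lower. VGLL3, a cofactor of TEAD transcription factors, stood at 5.54 and 1.39 FPKM. GAS1, a membrane protein of growth arrest and Hedgehog signalling, stood at 40.3 and 15.6 FPKM (2.59-fold lower, 2.36 to 2.84). DNAJC8, a splicing-associated protein of the DnaJ family, stood at 35.5 and 11.6 FPKM. HIBADH, an enzyme of valine breakdown, stood at 7.71 and 2.27 FPKM. TINCR, known for its part in epidermal differentiation, stood at 10.8 and 2.57 FPKM. NPTX1, a neuronal pentraxin, was 3.22-fold lower.

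**Figure D3:**
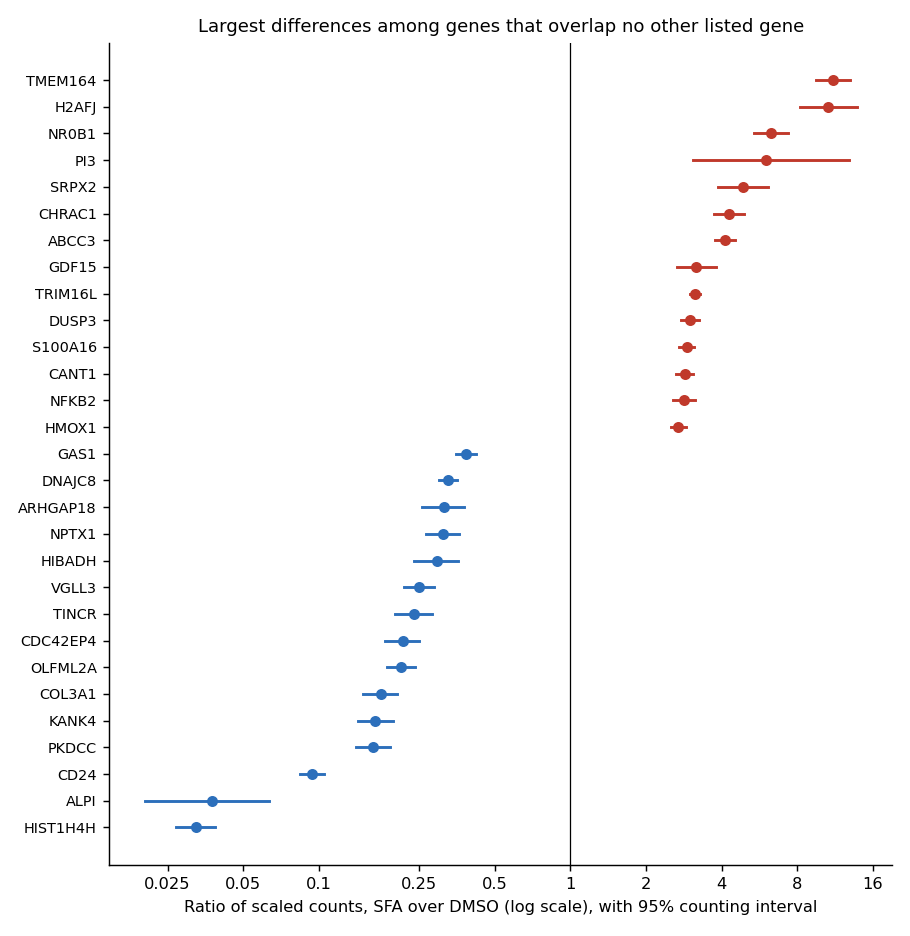
Ratio of scaled counts, SFA over DMSO (log axis), for 14 protein-coding genes at the top (red) and 15 at the bottom (blue) of the differences, each reaching 5 FPKM in a library and overlapping no other listed gene; bars are 95% counting intervals, with 1 library per group. PI3 and ALPI, with few counts in one library, have the widest bars.

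Feedback genes that ERK switches on in growth factor signalling were higher in 13 of 14 kept cases, 6 at least 2-fold, with a median of 0.68. Some of the 13, EGR1 and SPRY2 among them, and some of the 6 lay under 1 FPKM with DMSO. They were kept only through the SFA library, so the filter fixed their direction. The exception, IER3, was abundant and lower, at 164 and 119 FPKM. DUSP4 and DUSP5, nuclear phosphatases that inactivate ERK, stood at 1.98 and 1.59 FPKM with DMSO and at 6.21 and 4.86 FPKM with SFA. DUSP6, their cytoplasmic counterpart, lay under 1 FPKM in both, with 3 and 22 counts, and so did SPRY1 and SPRY4. EGR1, an immediate early gene of the same pathway, stood at 0.611 and 1.71 FPKM, whereas FOS stood at 1.68 and 0.822 FPKM. The list of AP-1 and immediate early factors had no common direction, with 6 of 15 higher (median −0.07, but 0.22 in the 10 that overlap no other listed gene). Among ligands, HBEGF, which activates the EGF receptor, stood at 1.99 and 3.68 FPKM and VEGFC, a lymphatic growth factor, at 2.94 and 5.71 FPKM. FGFBP1, which releases stored FGF, and FGF18 were 4.27-fold and 3.16-fold lower. Receptor tyrosine kinases split 10 higher to 11 lower: AXL stood at 7.29 and 12.3 FPKM and EPHA2 at 45.5 and 69.9 FPKM, while IGF1R was 1.58-fold lower.

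NF-kB subunits and inhibitors were higher in 13 of 16 cases, 2 at least 2-fold (median 0.28). NFKBIE, an inhibitor of NF-kB, stood at 1.19 and 2.90 FPKM. MAP3K14, the kinase NIK that starts the non-canonical branch, stood at 8.28 and 14.7 FPKM, and NFKB1, the canonical subunit, was level at 6.27 and 6.33 FPKM. TNFRSF12A, the receptor of TWEAK, was the abundant member of the interleukin and TNF receptors with the largest difference, at 33.3 and 67.4 FPKM (ratio 2.03, 1.92 to 2.14), in a list with 16 of 22 higher. CSF1, the growth factor of macrophages, stood at 1.22 and 4.80 FPKM (ratio 3.94, 3.32 to 4.69). TNFSF10, the death ligand TRAIL, was 3.34-fold lower at 1.75 and 0.525 FPKM. Only 10 of 31 listed cytokines and chemokines passed 1 FPKM.

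ATF4 carries the cell's response to amino acid shortage and unfolded protein. Of 15 kept ATF4 and CHOP factors 13 were higher, 1 at least 2-fold (median 0.26). ATF4 mRNA stood at 102 and 127 FPKM, a ratio of 1.24. TRIB3, a pseudokinase that restrains ATF4, stood at 38.6 and 61.5 FPKM, CEBPB, a partner factor, at 13.9 and 24.5 FPKM, and PPP1R15A, which restores translation, at 2.40 and 4.56 FPKM. The serine and one-carbon enzymes were higher in 12 of 15 cases (median 0.22), with PSAT1, of serine synthesis, at 60.5 and 104 FPKM. Of 17 kept amino acid transporters 12 were higher and 5 lower (median 0.10). SLC1A5, a glutamine carrier, stood at 53.5 and 102 FPKM (ratio 1.90) and SLC3A2, the heavy chain shared by several exchangers, at 57.0 and 92.7 FPKM (1.63). SLC38A2, a neutral amino acid carrier, was lower at 26.1 and 20.8 FPKM. Aminoacyl-tRNA synthetases were 12 higher and 8 lower (median 0.07, but −0.01 in the 8 without overlap), with MARS at 19.3 and 29.7 FPKM. The ATF4 composite element TGATGNAA, searched on both strands, was in 3.62% of all promoter windows and in 1.88% of those of kept genes. It was in 12.5% of 24 windows of the ATF4 and CHOP factors, from 3 of 14 genes. Among the serine and one-carbon enzymes it was in 4 of 16 windows, from only 2 of 10 genes. Windows of genes at least 2-fold higher with SFA held it in 3.96% and those of genes at least 2-fold lower in 5%.

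Cyclic nucleotide and G protein signalling leaned the other way, with 19 of 24 kept genes lower, 2 at least 2-fold (median −0.23). PDE3A, a phosphodiesterase that breaks down cyclic AMP, stood at 19.2 FPKM in the DMSO library against 4.99 FPKM in the SFA library (3.85-fold lower, 3.53 to 4.20). Its relative PDE3B stood at 4.04 and 2.35 FPKM. Receptors that raise cyclic AMP had no common direction: PTGER4, a prostaglandin E2 receptor, was 2.16-fold lower, while ADORA2B, an adenosine receptor, stood at 7.76 and 15.7 FPKM, 2.02-fold higher.

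In the TGF-beta and BMP pathway 12 of 24 genes were higher and 12 lower (median −0.02, but 0.31 in the 8 without overlap). ID3, a BMP target that blocks basic helix-loop-helix factors, stood at 163 and 76.1 FPKM (2.14-fold lower, 2.05 to 2.24), whereas its paralogue ID1 stood at 103 and 124 FPKM. LTBP1, which stores TGF-beta in the matrix, was 2.37-fold lower. Among Wnt genes 17 of 28 were lower, against 48.7% of all genes, but the median of −0.02 was near the 0.01 of all genes. Some of the 17 were kept only through the DMSO library, so the filter fixed their direction. The ligand WNT7B stood at 7.57 and 2.83 FPKM and the receptor LGR4 at 6.02 and 3.35 FPKM, while the receptor FZD7 stood at 4.39 and 7.79 FPKM. KLF, SOX, FOX and GATA factors were lower in 14 of 20 cases (median −0.19), among them FOXO4 at 9.62 and 4.82 FPKM, KLF13 at 19.5 and 11.8 FPKM and SOX4 at 17.5 and 11.3 FPKM. PPARG, a nuclear receptor of lipid metabolism, stood at 3.52 and 6.64 FPKM, and NR2F1, COUP-TF1, at 3.59 and 1.39 FPKM.

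Inhibitors of the cell cycle were among the genes that were lower. CDKN2B, which encodes p15, stood at 12.0 and 4.46 FPKM (2.68-fold lower, 2.39 to 3.03). CDKN1C, p57, was low with DMSO at 1.38 FPKM and stood at 0.226 FPKM with SFA. It was kept only through the DMSO library, so the filter fixed its direction. CDKN1B, p27, stood at 8.4 and 5.66 FPKM. RB1, the pocket protein that holds back S phase entry, stood at 2.31 and 1.36 FPKM. Across cyclins and their inhibitors 17 of 25 were lower (median −0.12, but 0.02 in the 9 that overlap no other listed gene). Some of the 17, CDKN1C among them, were kept only through the DMSO library. Mitosis genes were lower in 29 of 37 cases, none by 2-fold (median −0.21), with ECT2, of cytokinesis, at 7.25 and 4.55 FPKM and ASPM, of the spindle poles, at 2.61 and 1.64 FPKM. DNA replication genes had a median of −0.04 (0.03 in the 19 without overlap). E2F1, a driver of S phase entry, stood at 46.7 and 49.2 FPKM.

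Matrix genes were lower in 19 of 31 cases, 2 at least 2-fold (median −0.17). COL5A1, a chain of the fibril-nucleating collagen V, stood at 44.5 and 18.1 FPKM (2.46-fold lower, 2.37 to 2.55) and its partner COL5A2 at 25.6 and 15.6 FPKM. COL4A5, a basement membrane collagen, stood at 4.68 and 2.31 FPKM. THBS1, thrombospondin, was higher at 28.4 and 45.3 FPKM. Of the 4 kept fibroblast markers 3 were lower and 1 higher: COL1A1 stood at 11.3 and 5.96 FPKM, COL3A1 at 8.47 and 1.49 FPKM and PDGFRB at 6.39 and 2.63 FPKM, while THY1 stood at 4.29 and 6.48 FPKM. DCN and LUM, further fibroblast markers, stayed under 1 FPKM, at 53 and 34 counts with DMSO and 10 and 14 with SFA. Over the 4 of 16 markers of other cell types that passed 1 FPKM, the summed level was 30.4 FPKM with DMSO and 16.6 FPKM with SFA. Their part in the collagen values was not tested. Adhesion receptors were 12 higher and 12 lower, with the tetraspanin CD82 at 6.08 and 1.99 FPKM, the junction protein F11R at 9.35 and 4.42 FPKM and the tetraspanin CD151 at 29.4 and 44.2 FPKM. DSP, the desmosomal plakin, stood at 22.4 and 12.4 FPKM.

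Matrix and membrane proteases were higher in 13 of 19 cases (median 0.18), with the lysosomal cathepsins CTSL at 7.92 and 15.3 FPKM and CTSD at 109.9 and 183 FPKM. SERPINE2, protease nexin, stood at 17.4 and 35.3 FPKM and TIMP3, a tissue inhibitor of metalloproteases, at 17.4 and 33.2 FPKM. The S100 calcium-binding proteins, neighbours in 1 cluster on chromosome 1, took opposite directions. S100A16 stood at 19.2 and 55.9 FPKM (ratio 2.90, 2.71 to 3.11) and S100A10, the annexin A2 partner, at 54.3 and 131 FPKM (2.42), while S100A4, linked to cell motility, stood at 74.0 and 30.1 FPKM (2.46-fold lower) and S100A6 at 104 and 70.1 FPKM. Keratins were lower in 9 of 14 cases (median −0.07, but 0.07 in the 5 without overlap), with KRT17 at 76.9 and 43.5 FPKM and KRT81 at 273 and 179 FPKM. KRT7 was an exception at 118 and 161 FPKM.

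Cholesterol synthesis genes were lower in 21 of 22 cases, none by 2-fold (median −0.32). The list includes regulators: SREBF2, the transcription factor of the pathway, stood at 37.2 and 25.1 FPKM, and INSIG1, which retains it in the endoplasmic reticulum, at 10.3 and 6.82 FPKM. The exception was EBP, a sterol isomerase, at 18.7 and 24.3 FPKM. In fatty acid synthesis 11 of 17 genes were lower, 2 at least 2-fold (median −0.27), among them ACSL3, which activates fatty acids, at 12.4 and 7.87 FPKM. In fatty acid oxidation 14 of 19 genes were higher, against 51.3% of all genes. The median of 0.09 lay inside the quartiles of all genes, −0.18 and 0.19. The only member at least 2-fold higher, ANGPTL4, was kept only through the SFA library, so the filter fixed its direction. SLC25A20, the carnitine carrier of the mitochondrial membrane, stood at 8.44 and 13.5 FPKM and PLIN2, the coat of lipid droplets, at 8.89 and 13.2 FPKM. Glycolysis had a median of −0.02 (0.07 in the 4 without overlap) and the citric acid cycle one of 0.00.

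Proteasome genes were higher in 29 of 33 cases by small amounts, none by 2-fold (median 0.15, and 0.32 in the 17 that overlap no other listed gene). The catalytic subunit PSMB6 stood at 33.1 and 58.6 FPKM (ratio 1.77, 1.66 to 1.89) and PSMB3 at 152 and 215 FPKM. PSMB8, the immunoproteasome subunit listed with antigen presentation, stood at 10.5 and 5.38 FPKM. Antigen presentation was divided: the class I heavy chains HLA-C and HLA-B stood at 10.9 and 4.44 FPKM with DMSO and at 6.20 and 2.55 FPKM with SFA, while B2M, their light chain, stood at 28.6 and 46.4 FPKM. In the autophagy and lysosome list 20 of 33 were higher (median 0.05, but −0.04 in the 9 without overlap). SQSTM1, the autophagy receptor p62 and an NRF2 target, stood at 32.2 and 87.0 FPKM, while GABARAPL1, an ATG8 protein, was 2.41-fold lower and the starting kinase ULK1 2.08-fold lower. BAG1, a cochaperone, was 2.17-fold lower and CANX, the lectin chaperone calnexin, 1.90-fold lower, in lists with medians of 0.02 and −0.03 (0.00 and 0.13 without overlap). HIF1A, the oxygen-regulated factor, stood at 10.9 and 5.89 FPKM, yet hypoxia-inducible genes were higher in 14 of 17 cases (median 0.19), with NDRG1 at 5.42 and 8.86 FPKM. CASP4, an inflammatory caspase, stood at 1.34 and 3.25 FPKM.

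**Figure D4:**
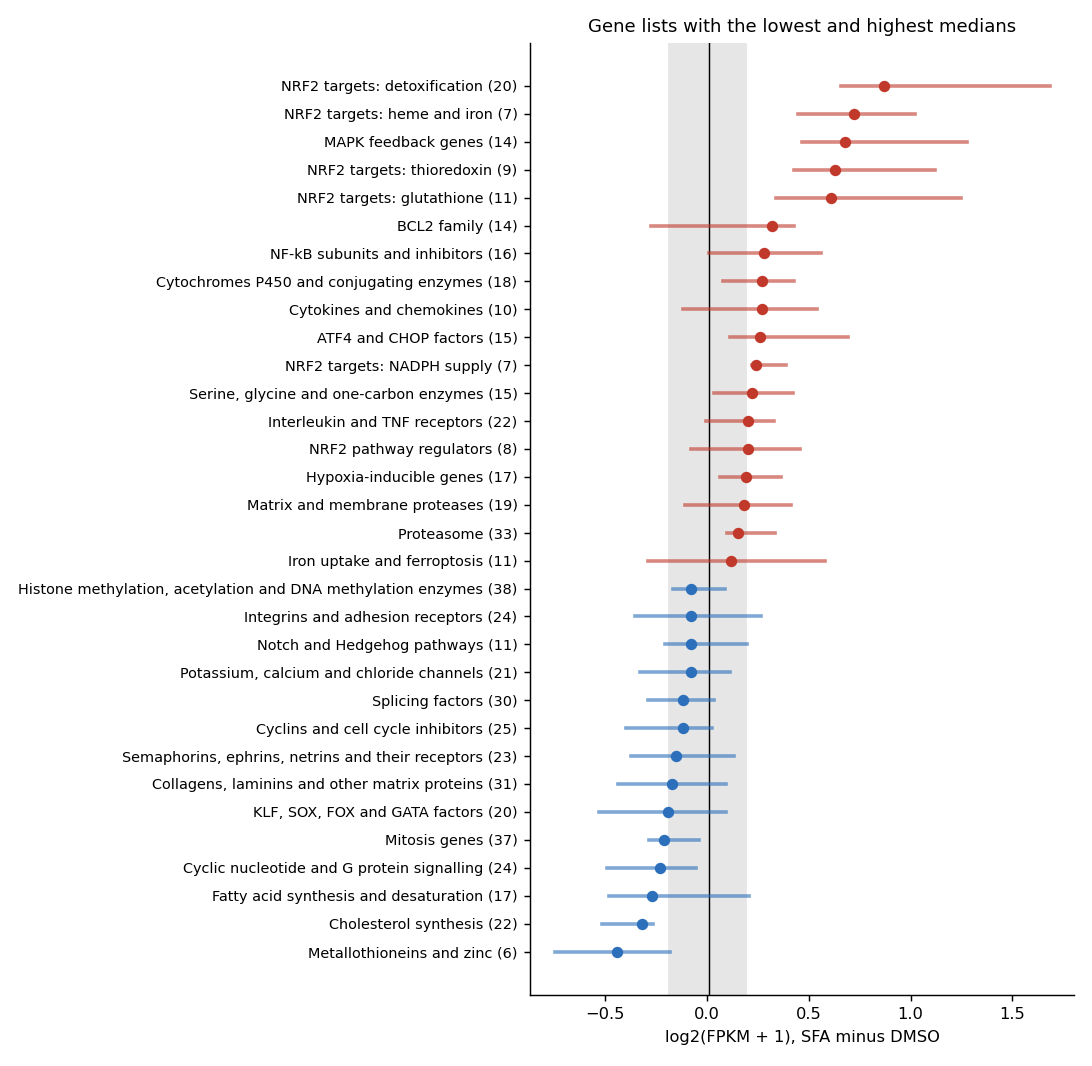
Median (point) and quartiles (bar) of the log2(FPKM + 1) difference, SFA minus DMSO, for the 14 gene lists with the lowest and the 18 with the highest medians among lists with at least 6 kept genes; the number of kept genes is in brackets. The grey band and line are the quartiles, −0.18 and 0.19, and the median, 0.01, of all 11310 genes; of the lists shown, the 5 NRF2 target groups and the MAPK feedback genes have their whole bar to the right of the band.

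The largest loss in FPKM lay in non-coding RNA. RMRP, the RNA of RNase MRP, had 39357 counts with DMSO and 4383 with SFA, 6.53-fold lower, and 9288 FPKM with SFE against 7944 FPKM with DMSO. The table lists RMRP under more than 1 identifier at the same place, and the sum over them was 3.79-fold lower. RPPH1, the RNA of the related RNase P, stood at 16535 and 15690.2 FPKM and RN7SK, which restrains transcription elongation, at 27116 and 29418 FPKM. LINC00942, a long intergenic RNA, stood at 12.4 and 57.7 FPKM (ratio 4.64, 4.22 to 5.11).

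How far a value can be assigned to its gene was examined through the overlaps, because the sources used here do not say whether reads were assigned by strand. Of the 159 genes at least 2-fold higher, 104 overlap another listed gene, and of the 157 lower, 109 do. Among the 3859 genes that overlap no other, 55 (1.43%) were at least 2-fold higher and 48 (1.24%) lower. Counts of the overlapping genes were summed with those of every gene they overlap. The summed ratio remained at least 2-fold for 54 of the 104 (51.9%) and 62 of the 109 (56.9%), and was under 1.2-fold in that direction for 32 and 25. A neighbour with many counts dilutes such a sum, so the change in neighbours' counts, scaled to the library totals, was also set against the gene's own. Neighbours moved the opposite way by 50% or more of the gene's change for 21 of the 104 and 20 of the 109, and offset less than 10% of it for 74 and 84. PAGR1, a subunit of a histone methyltransferase complex, shows the first kind: 274 counts with DMSO and 619 with SFA gave a ratio of 3.11, the sum 1.01, and its neighbours offset 80.4% of the change. PDF, mitochondrial peptide deformylase, had a ratio of 3.53 and a summed ratio of 1.08, with 52.3% offset. The lipoprotein lipase inhibitor ANGPTL4 had a summed ratio of 1.07 and an offset of 51.8%. ETV4, an ETS factor downstream of ERK, is of the second kind, with a ratio of 8.98 and a summed ratio of 1.42 but an offset of 0.0497%: its neighbour DHX8 stood at 17.0 and 17.0 FPKM. LRRC8D, a subunit of volume-regulated anion channels, had a summed ratio of 7.72, OSGIN1, an NRF2 target, of 9.72 and PSME3, a proteasome activator, of 2.79. WISP2, a matricellular protein also called CCN5, stayed 5.06-fold lower in the sum and PDE3A 3.23-fold lower. EPHX1, described above, came to 1.84 in the sum, under 2-fold. RHOBTB3, the neighbour of GLRX, stood at 60.9 and 36.1 FPKM.

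**Figure D5:**
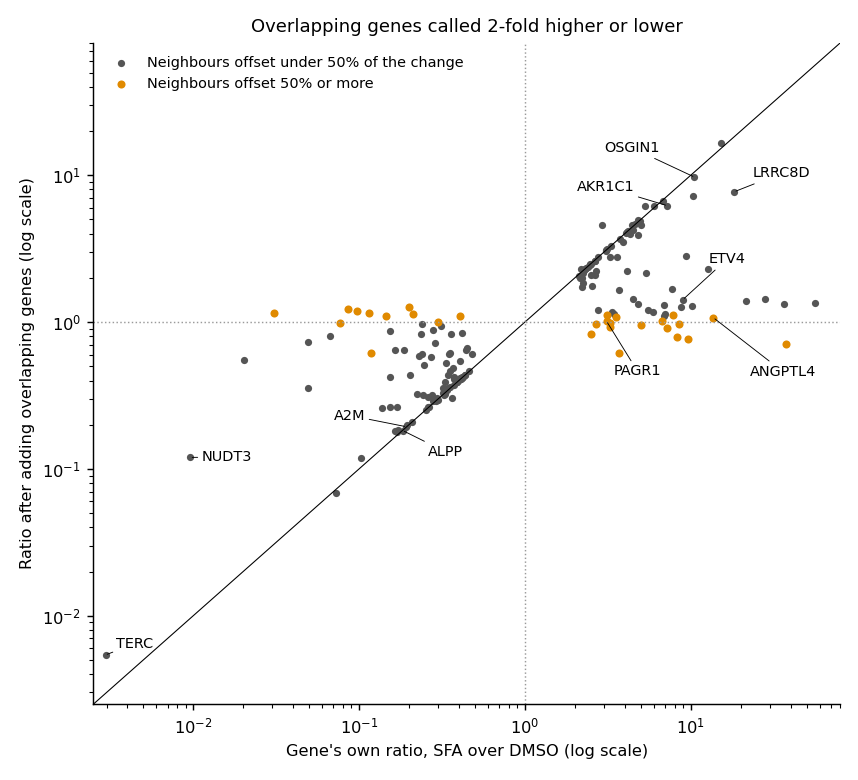
For genes called at least 2-fold higher or lower that overlap another listed gene and have counts in both libraries, the gene's own ratio of SFA to DMSO (horizontal log axis) is plotted against the ratio after adding the counts of overlapping genes (vertical log axis), with a line of equality. Orange points, whose neighbours offset 50% or more of the change in scaled counts, lie nearer than most to a summed ratio of 1, and grey points that lie near the line include AKR1C1, OSGIN1 and A2M.

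A few values in the SFE library stand beside these, at a dose of 18 µM and not 12 µM, so no comparison is made. CANT1 stood at 4.28, 12.2 and 4.76 FPKM in the DMSO, SFA and SFE libraries. TRIM16L stood at 15.9, 49.6 and 23.2 FPKM, and HIBADH at 7.71, 2.27 and 7.71 FPKM. CHRAC1 stood at 2.25, 9.63 and 11.3 FPKM and DNAJC8 at 35.5, 11.6 and 13.3 FPKM.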

How the data were processed

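RNA was sequenced from AGS cells in 3 libraries, 1 per group, and the DMSO and SFA libraries were compared. The labels do not say that any sample was repeated. The authors deposited raw counts and FPKM per gene for each library. The deposited FPKM equals the count over 1 length per gene and the library's total count, within 0.0448% over 23314 genes. The submitters' processing notes name the hg38 build, StringTie 1.2.3 and HISAT2 2.0.4. The roles of these tools, the counter, its strand setting and the annotation release are not given in the sources used here. Biotypes came from GENCODE 29, matched for 98.5% of identifiers.

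Genes at 1 FPKM or more in either library were kept, with the identifier of highest mean FPKM per name. A gene under 1 FPKM in one library was kept only through the other, so the filter fixed its direction. That applies to some members counted as higher in the MAPK feedback, detoxification, ATF4, NF-kB, fatty acid oxidation and cytochrome P450 lists. Some members counted as lower, in the glutathione, cyclin and Wnt lists among others, were likewise kept only through the DMSO library. Differences are log2(FPKM + 1), SFA minus DMSO, which understates low genes, and 2-fold was the call. Ratios are counts over library totals with exact conditional (Clopper-Pearson) 95% intervals. PCR reads without molecular identifiers are not independent, so these cover counting error only. A count of 0 was given a floor of 3 counts, 0.160 CPM with DMSO and 0.220 with SFA. With 1 library per group nothing was tested and there are no p-values.

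The genes, the 70 lists and the rules were chosen with earlier results of these data known. Named genes were the 15 protein-coding genes with the largest difference each way at 5 FPKM or more that overlap no other, the 10 largest FPKM gains and losses, in each list the 6 members that differed most, and the epithelial markers. Other names (among them VIM, CDH2, EBP, NFKB1, E2F1, LINC00942, the overlap examples and list members quoted beside those) were chosen after their values were seen, as were the AP-1 motif and the comparison of a gene's change with that of its neighbours. A few genes that these rules name are not reported here. Alternatives were other pseudocounts, filters, scalings (TMM from edgeR 4.0.16, median ratios) and treatments of overlap. Python 3.11.15 with pandas 2.3.3, NumPy 2.4.6 and SciPy 1.17.1, matplotlib 3.10.9 and R 4.3.3 were used.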

Additional observations from a re-analysis of the deposited data

How the results depend on the processing

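The main limit is that each group has 1 library, so no left-out library and no estimate of the spread between cultures could be had. No paired analysis was possible because each group has only 1 sample. Genes at least 2-fold higher and lower numbered 159 and 157. These became 426 and 351 with a pseudocount of 0.1, 98 and 94 at a filter of 5 FPKM, 55 and 48 without overlapping genes, and 479 and 390 from the ratio of scaled counts. The other settings stayed within 1.5 times of the main numbers: 147 and 170 under median-ratio scaling, 142 and 171 under TMM scaling, 141 and 131 with counts summed over overlapping genes (108 and 105 of them shared), and 178 and 165 where the counting interval lay beyond 2-fold. Scaling shifted the log2 ratio of every gene by −0.05 (median ratios) or −0.06 (TMM), and log2(FPKM + 1) differences of low genes by less. Some list medians changed sign: growth factors were at 0.11 but −0.045 at a filter of 5 FPKM, cytokines at 0.27 but −0.18 at that filter, cyclins and inhibitors at −0.12 but 0.023 without overlapping genes, and protease inhibitors at 0.11 but −0.012 with no filter. In all, 16 of the 70 list medians had the other sign among members that overlap no other listed gene. Of these 16, 10 lay within 0.1 of 0 in both medians. The cause was not tested.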

Other observations

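A few further groups had no common direction but held single genes with clear differences. Of 21 tubulin and microtubule genes 10 were higher and 11 lower. MAP7, a microtubule-stabilising protein, stood at 4.68 and 1.81 FPKM and MAP1B at 8.59 and 4.49 FPKM, whereas TUBB2B and TUBB2A, near-identical beta tubulins whose reads may be split, stood at 1.33 and 12.3 FPKM with DMSO and 3.03 and 18.2 FPKM with SFA. In the actin list 19 of 29 were higher (median 0.07): MYH10, a non-muscle myosin, stood at 6.68 and 3.51 FPKM. RHOB, a short-lived GTPase, stood at 96.4 and 48.6 FPKM. Guidance cues were lower in 14 of 23 cases (median −0.15), with the semaphorins SEMA3C at 4.39 and 2.02 FPKM and SEMA3F at 9.82 and 5.96 FPKM, and SEMA4B at 6.00 and 9.23 FPKM in the opposite direction.

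Transporters of ions and phosphate also differed singly. SLC20A1, a sodium-phosphate carrier, stood at 11.2 and 21.0 FPKM and SLC12A7, a potassium-chloride carrier, at 23.5 and 40.6 FPKM, while ATP1B1, a subunit of the sodium pump, stood at 20.6 and 12.5 FPKM and PIEZO1, a mechanosensitive channel, at 51.8 and 33.4 FPKM. Splicing factors were lower in 18 of 30 cases (median −0.12), SRSF3 at 19.9 and 11.4 FPKM and TRA2A at 5.84 and 3.56 FPKM. HDAC4, a histone deacetylase, stood at 3.95 and 1.79 FPKM in a list of chromatin enzymes with 16 of 38 higher. In mitochondria PINK1, the kinase that marks damaged organelles, stood at 21.5 and 12.4 FPKM and TIMM13, an import chaperone, at 75.2 and 42.8 FPKM (a ratio of 0.569, or 0.873 with overlapping genes added). CPS1, a urea cycle enzyme, stood at 51.3 and 20.7 FPKM (2.48-fold lower, 2.39 to 2.58).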
